A study of Mus musculus with 6 samples.

Results

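DNA damage checkpoint and repair genes were examined in mouse high-grade glioma cells. The members were a list of 42 genes taken by platform gene symbol, of which 38 had a probe set among the 12393 genes named on the array; Xrcc2, Xrcc3, Fancd2 and Lig4 were not analysed here. For a gene with several probe sets the one with the highest mean over the 6 arrays stands for it. The arrays hold 4 samples of EGFRvIII glioma cells (strain label BALBc INK4a -/-) and 2 samples of PDGF-B glioma cells (strain label BALBc). EGFRvIII is a truncated EGF receptor that signals without ligand, and PDGF-B is the ligand of the PDGF receptors. For every sample, neural progenitors of embryonic day 14 were infected with a retrovirus carrying the driver and a fluorescent reporter and grafted into the brain parenchyma of adult BALBc mice. Cells of symptomatic tumours were dissociated and sorted for the reporter, called DsRed in some label fields and EGFP in others, and one field calls the cells cultured. Levels are log2 RMA intensities of a probe set, a group of array probes annotated to a gene, so a difference of 1 is a 2-fold change. They compare samples for a gene, not genes with each other. The driver and the labelled INK4a genotype changed together and cannot be told apart. As models the cells carry a virally expressed driver in transplanted progenitors. Because the samples were bulk RNA, fewer cells of a type and less RNA per cell cannot be told apart either.

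Cells answer DNA damage in layers. Sensor complexes find the break or stalled fork, the kinases ATM and ATR signal through CHK2 and CHK1 to hold the cell cycle, and dedicated pathways then mend each kind of lesion: homologous recombination and end joining for double-strand breaks, the Fanconi pathway for crosslinks, mismatch repair for replication errors, base excision for damaged bases, and nucleotide excision for bulky adducts. In glioma these genes are known mainly for their bearing on radiotherapy and on alkylating drugs, some of whose lesions MGMT removes directly. Many recombination and crosslink repair genes are transcribed in S phase, so their RNA tends to follow the share of dividing cells.

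The cells carried oligodendrocyte progenitor markers. All 6 such markers measured were bright enough to be tested, with list means of 11.36 to 11.97 in the EGFRvIII arrays and 11.38 to 11.57 in the PDGF-B arrays on the log2 scale. Of these markers 0 were called, and the groups did not overlap in 2. Nkx2-2 was 2.05 higher in EGFRvIII cells (limma adjusted p = 0.0546), and Pdgfra had a log2 fold change of -0.86 (limma adjusted p = 0.151). None of the 8 microglia and macrophage, 5 endothelial, 5 pericyte and fibroblast or 4 T and NK cell markers was bright enough for a test. Mature oligodendrocyte markers (2 of 4 tested, 0 called, Mog among the dim ones) had list means of 6.98 to 9.18 in EGFRvIII and 6.06 to 6.23 in PDGF-B arrays, and astrocyte markers (2 of 5 tested, 0 called) of 5.69 to 7.90 in EGFRvIII and 5.37 to 5.82 in PDGF-B arrays. Neuron markers (2 of 5 tested, 0 called) had list means of 5.16 to 5.43 in EGFRvIII and 5.57 to 6.05 in PDGF-B arrays. The part of these cell types in the results was not tested. Cdkn2a, the locus of INK4a, stood at 3.70 to 3.78 in the EGFRvIII arrays and at 6.77 and 6.83 in the PDGF-B arrays, and where its probe set lies relative to the deletion was not determined here. EGFRvIII replicates 1 and 2 stood apart in Xist, the RNA of the inactive X chromosome, at 3.85 and 4.46 against 11.71 and 12.34 in EGFRvIII replicates 3 and 4 and 12.38 and 11.82 in the PDGF-B arrays. Kdm5d, a Y-linked gene, went the opposite way, with 9.40 and 8.97 in those 2 arrays and 3.39 to 3.58 in every other array. This is the pattern of male cells in the former and of female cells in the latter. EGFRvIII replicate 2 also correlated least with its own group, at 0.919 to 0.943 across genes, against 0.955 to 0.967 among the other 3 EGFRvIII arrays. Calls that ended with the Xist signal as a covariate, or in the 4 arrays with a high Xist signal, are given as such below.

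RNA of the repair genes differed little between the drivers. Of the 38 members, 34 were bright enough to be tested, and 0 passed the test in either direction (limma, Benjamini-Hochberg adjusted p under 0.05 over the 6753 genes tested). Over all tested genes 2.24% passed, 1.64% higher and 0.592% lower in EGFRvIII cells. At an unadjusted p under 0.05 there were 6 members (17.6%), 2 higher and 4 lower in EGFRvIII cells, against 25.0% of all tested genes, 15.7% higher and 9.33% lower. The groups did not overlap in 8 of 34 members (23.5%), against 37.4% of all tested genes, so neither share was above the background. The log2 fold changes of the members ran from -0.62 to 0.86 with a median of -0.09, beside a median of 0.06 over all tested genes. By its brightest probe set none of the 34 reached a 2-fold difference, which 6.09% of all tested genes did. A further probe set of Rad54l had -1.03. The 95% confidence interval lay within a 2-fold change in both directions for 31 of 34 members, with a median half-width of 0.40 on the log2 scale; the exceptions were Brca1, Rad51ap1 and Rad54l. A p that misses the threshold does not show equal levels. Centring each array on its median moved the log2 fold change of all genes down, to a median of -0.07, and that of the members to -0.22. The count of 6 members was 2 without EGFRvIII replicate 2, 2 without PDGF-B replicate 2, and 1 in the 4 arrays with a high Xist signal.

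**Figure D1:**
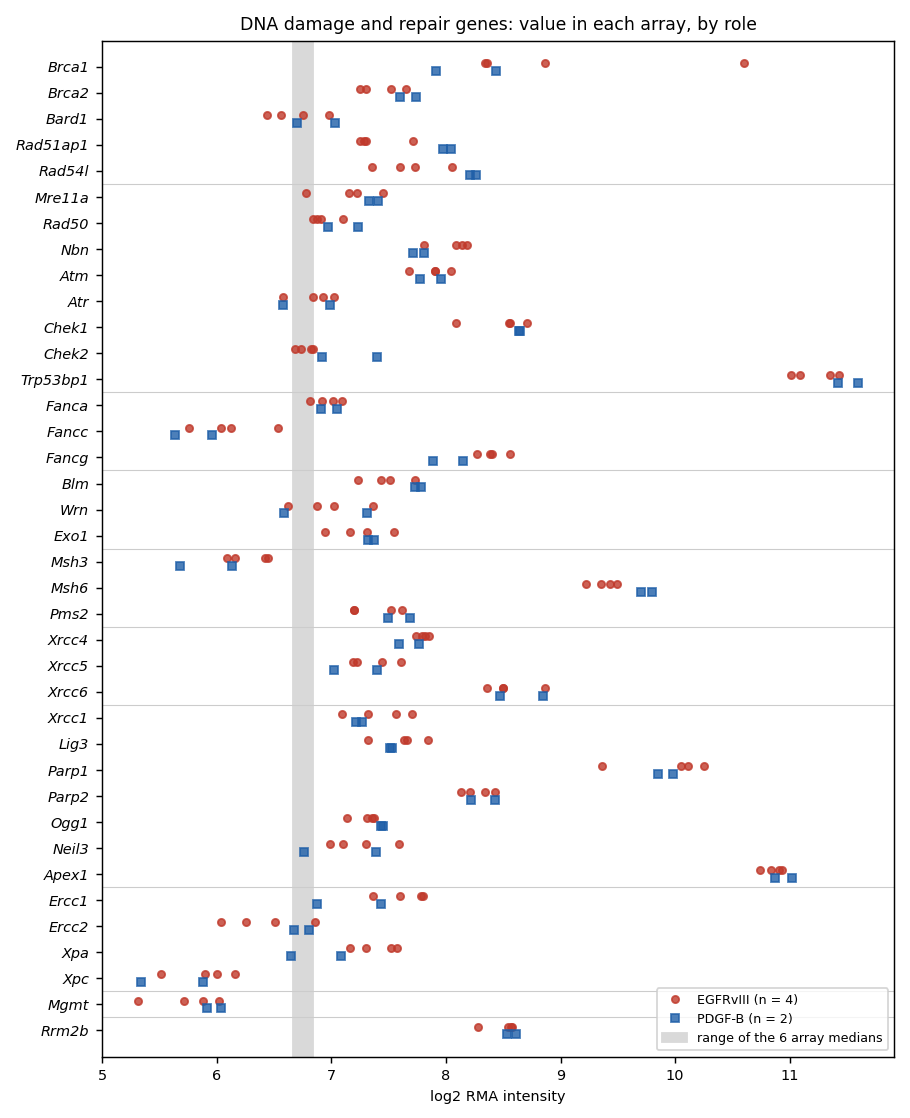
Log2 RMA intensity of the 38 members in each array, grouped by role (thin lines divide the roles in the order of the text: recombination, break sensing and checkpoint, Fanconi, RecQ and resection, mismatch, end joining, base excision, nucleotide excision, direct reversal, nucleotide supply). Circles are the 4 EGFRvIII arrays, squares the 2 PDGF-B arrays, and the grey band spans the array medians of 6.66 to 6.84. The 2 drivers lie close together for most members, and 1 EGFRvIII array stands far to the right for Brca1, at 10.60.

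**Figure D2:**
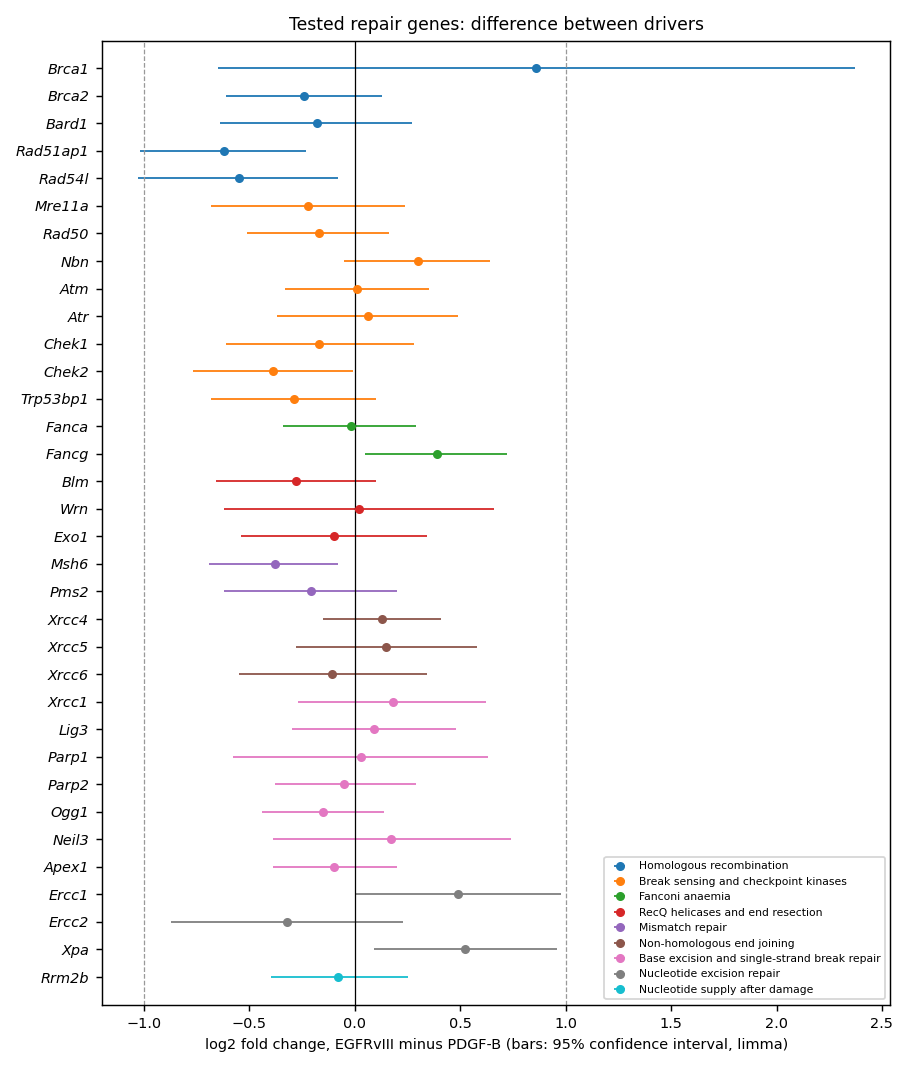
Log2 fold change (EGFRvIII minus PDGF-B) of the 34 tested members with 95% confidence intervals from limma, coloured by role; dashed lines mark a 2-fold change. Of the intervals 31 lie between the dashed lines, and the widest is that of Brca1, from -0.65 to 2.37.

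The start regions of the 6 members with an unadjusted p under 0.05, and of Brca1, whose level varied most among the EGFRvIII arrays, are shown to let a reader see whether they share a site for E2F, the transcription factor family of S-phase genes. The sequences are the 200 bases before the gene start in RefSeq (GRCm38.p6), 5′ to 3′ on the gene's strand. Capitals mark a match on either strand to the motif TTCCCGC, to its variant TTCGCGC, to the variant written TTGCCGC or to the one written TTGGCGC. These motifs were searched after longer forms, with a further T in front, had matched few promoters.
Rad51ap1 (chr6:126939588-126939787, minus strand): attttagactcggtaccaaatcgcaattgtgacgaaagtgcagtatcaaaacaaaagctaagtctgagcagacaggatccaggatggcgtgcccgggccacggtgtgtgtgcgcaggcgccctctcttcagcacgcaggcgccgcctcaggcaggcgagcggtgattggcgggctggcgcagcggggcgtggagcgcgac
Rad54l (chr4:116123691-116123890, minus strand): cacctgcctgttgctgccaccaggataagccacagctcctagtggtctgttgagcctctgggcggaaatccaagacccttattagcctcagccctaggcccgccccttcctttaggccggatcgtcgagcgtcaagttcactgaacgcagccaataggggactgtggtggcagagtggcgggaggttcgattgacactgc
Msh6 (chr17:87974850-87975049, plus strand): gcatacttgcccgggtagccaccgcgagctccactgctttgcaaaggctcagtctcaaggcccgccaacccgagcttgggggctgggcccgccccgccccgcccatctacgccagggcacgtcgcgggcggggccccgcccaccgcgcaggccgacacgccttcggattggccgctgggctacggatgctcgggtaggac
Chek2 (chr5:110839783-110839982, plus strand): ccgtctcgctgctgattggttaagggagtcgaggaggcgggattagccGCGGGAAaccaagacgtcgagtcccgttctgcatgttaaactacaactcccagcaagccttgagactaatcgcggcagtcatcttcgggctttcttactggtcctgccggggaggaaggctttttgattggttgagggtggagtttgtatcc
Fancg (chr4:43010302-43010501, minus strand): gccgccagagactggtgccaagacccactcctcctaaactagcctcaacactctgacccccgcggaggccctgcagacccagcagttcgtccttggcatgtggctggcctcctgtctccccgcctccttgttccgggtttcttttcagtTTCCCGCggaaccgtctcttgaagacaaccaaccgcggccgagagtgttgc
Xpa (chr4:46196312-46196511, minus strand): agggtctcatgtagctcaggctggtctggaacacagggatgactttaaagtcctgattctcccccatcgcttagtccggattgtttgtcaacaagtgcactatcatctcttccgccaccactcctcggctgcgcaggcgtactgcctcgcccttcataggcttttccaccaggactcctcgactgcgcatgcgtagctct
Brca1 (chr11:101551956-101552155, minus strand): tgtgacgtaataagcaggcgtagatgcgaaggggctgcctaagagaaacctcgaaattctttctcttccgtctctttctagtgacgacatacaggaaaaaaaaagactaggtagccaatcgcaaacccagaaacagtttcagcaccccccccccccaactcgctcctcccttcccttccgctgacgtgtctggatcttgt
Chek2 held 1 match, starting 152 bases before its start, and Fancg held 1, at 51 bases. The printed bases of Rad51ap1, Rad54l, Msh6, Xpa and Brca1 held none. Promoters of 34 of the 42 listed genes were in the table. Over the 250 bases before the start, 12 of those 34 (35.3%) held a match, against 9.01% of all 27025 genes in the table. The members' promoters were also richer in G and C, with a median of 58.4% against 52.4% over all promoters, and the part of base composition in the motif share was not tested. The S-phase members were listed as textbook targets of E2F or genes whose RNA peaks in S and G2. Of these 3 of 10 (30%) held a match and of the other members 9 of 24 (37.5%). With the further T the shares were 17.6% of members and 2.16% of all genes. A match is only a run of letters, and its absence from this window says nothing about the factor.

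Homologous recombination genes held the member with the lowest p. Of 7 listed genes 5 were tested, 0 passed, and 4 of the 5 had a negative log2 fold change. Rad51ap1, an accessory factor of homologous recombination, stood at 7.28, 7.30, 7.25 and 7.71 in the EGFRvIII arrays and at 8.04 and 7.97 in the PDGF-B arrays. Every EGFRvIII array lay below both PDGF-B arrays, with EGFRvIII replicate 4 nearest to them. They differed by -0.62 on average (SE 0.17, 95% interval -1.02 to -0.23), and the limma adjusted p of 0.0866 did not pass. Its adjusted p ran from 0.0663, without EGFRvIII replicate 4, to 0.322, in the 4 arrays with a high Xist signal, over 17 other settings. The 4 Rad51ap1 probe sets differed among themselves, with log2 fold changes of -0.62, -0.51, -0.17 and 0.03, and their mean gave -0.32.

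Rad54l, a DNA translocase of homologous recombination, stood at 7.73, 7.60, 7.35 and 8.05 in EGFRvIII and at 8.26 and 8.21 in PDGF-B arrays. These groups did not overlap either. The mean difference was -0.55 (SE 0.20), which limma gave an adjusted p of 0.154, and its other probe sets gave -1.03 and -0.11. Brca2, a mediator of homologous recombination, averaged 7.43 ± 0.19 in EGFRvIII cells (SD, n = 4) and 7.67 ± 0.10 in PDGF-B cells (SD, n = 2). Bard1, the partner of BRCA1 in its ubiquitin ligase, averaged 6.68 ± 0.24 in EGFRvIII and 6.87 ± 0.23 in PDGF-B cells. Their groups overlapped and neither passed.

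Brca1, the scaffold that steers breaks towards recombination, was set apart by 1 array. It stood at 8.34, 10.60, 8.36 and 8.86 in EGFRvIII replicates 1 to 4 and at 7.91 and 8.44 in the PDGF-B arrays. The high value in EGFRvIII replicate 2 made its group SD 1.07, where the next member, Parp1, had 0.40 and the median tested member 0.20; 1.91% of all tested genes had an SD at least as large. The log2 fold change between drivers was 0.86 (SE 0.64; limma adjusted p = 0.427) and 0.34 without EGFRvIII replicate 2. The other probe sets of Brca1 at or above the array median in any array showed the same array high. One had 8.75 in that array and 7.31 to 7.71 in the other EGFRvIII arrays, and another had 8.16 there and 6.36 to 6.53 elsewhere in the group. The remaining, dim probe set was at 5.34 there, against 4.89 to 5.22. Among the 10 other S-phase members that array lay between -0.40 and 0.12 of the mean of the other 3 EGFRvIII arrays, while Brca1 lay 2.08 above it. Mbp, a myelin gene of mature oligodendrocytes, was highest in the same array, at 11.92 against 7.95 to 9.42 in the other EGFRvIII arrays and 6.20 and 6.42 in PDGF-B. Of the other mature oligodendrocyte markers measured, Cnp was also highest there, at 12.71 against 11.50 to 12.40 in the other EGFRvIII arrays. So was Mag, which was too dim to be tested, at 8.28 against 4.64 to 6.23. Mog, dim in every array, was not, at 3.79 against 3.33 to 3.84. The part of these genes' cells in the Brca1 value was not tested.

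**Figure D3:**
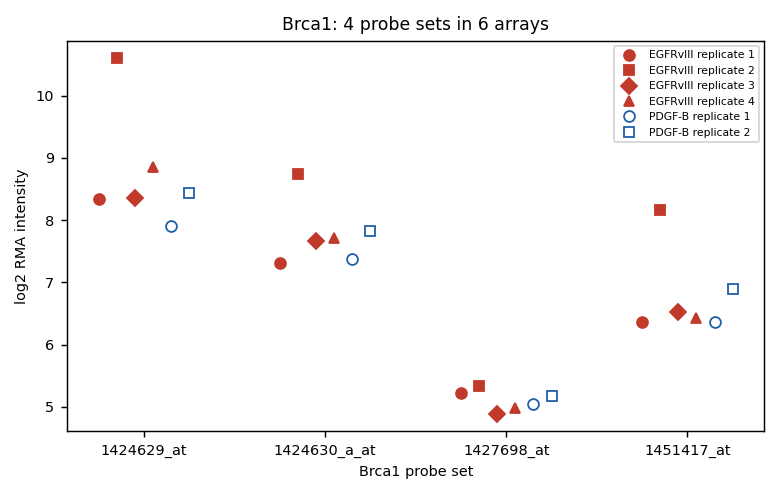
Log2 RMA intensity of the 4 Brca1 probe sets in each of the 6 arrays (filled red, EGFRvIII; open blue, PDGF-B). EGFRvIII replicate 2 is the highest point for all 4 probe sets, by the least in the dim one, at 5.34.

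The genes beside Brca1 on its chromosome were looked up after this value was seen. Of the 5 measured genes on either side in RefSeq order, 3 of 10 were at least 1 higher in EGFRvIII replicate 2 than on average in the rest of the group, and these 3 were the consecutive measured genes on one side of Brca1. Rnd2, a small GTP-binding protein, stood at 10.58, 11.56, 9.43 and 9.98 in EGFRvIII replicates 1 to 4 and at 8.50 and 9.37 in PDGF-B. Vat1, a vesicle membrane protein, stood at 8.66, 10.16, 8.53 and 8.93 in EGFRvIII and 8.35 and 9.14 in PDGF-B. Ifi35, an interferon-induced protein, stood at 5.82, 7.90, 7.22 and 6.06 in EGFRvIII and 5.44 and 5.66 in PDGF-B, so EGFRvIII replicate 3 was high as well. Ifi35 was above the array median in EGFRvIII replicates 2 and 3 alone, so it entered the test only through the arrays in which it is high. The excess in EGFRvIII replicate 2 was 1.56 for Rnd2, 1.45 for Vat1 and 1.53 for Ifi35, the last measured partly against dim values. On the other side Nbr1 lay 0.25 above, and the next genes between -0.13 and 0.28, though Tmem106a, Rdm1 and Dhx8 among these were below the array median in all 6 arrays, so that 7 of the 10 neighbours were tested. In the same array 2.84% of all tested genes were higher by at least 1, and 0.533% by as much as Brca1 or more. What the neighbouring values share beyond their position was not tested.

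**Figure D4:**
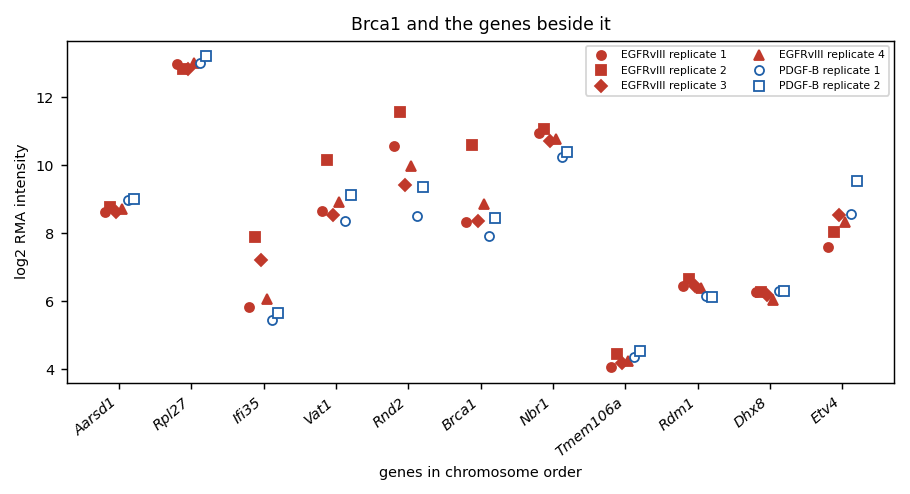
Log2 RMA intensity in each array of Brca1 and the 5 measured genes on either side, in chromosome order (filled red, EGFRvIII; open blue, PDGF-B). EGFRvIII replicate 2 (filled squares) is the highest array for Ifi35, Vat1, Rnd2 and Brca1, at 7.90, 10.16, 11.56 and 10.60, and lies close to the other EGFRvIII arrays for Rpl27 and Nbr1.

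Break sensing and checkpoint genes were all tested, and 0 of 8 passed, with log2 fold changes from -0.39 to 0.30. Chek2, the kinase that ATM activates, stood at 6.82, 6.68, 6.73 and 6.84 in EGFRvIII and at 6.92 and 7.40 in PDGF-B arrays. The EGFRvIII values lay close together around the array median and below both PDGF-B values, which themselves differed more than the 4 EGFRvIII arrays did. The difference of -0.39 (SE 0.16) had a limma adjusted p of 0.196 and was -0.15 without PDGF-B replicate 2. Chek1, the kinase downstream of ATR, averaged 8.48 ± 0.27 in EGFRvIII and 8.64 ± 0.01 in PDGF-B cells. All 4 of its probe sets had negative log2 fold changes, from -0.17 to -0.50. Only the brightest of them, at -0.17, was above the array median in more than 1 array. Atm and Atr themselves had log2 fold changes of 0.01 and 0.06, with 95% intervals of -0.33 to 0.35 and -0.37 to 0.49.

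The MRN complex binds broken ends and activates ATM. Of its subunits Nbn had a log2 fold change of 0.30, Mre11a -0.22 and Rad50 -0.17, and none of the 3 passed (limma adjusted p = 0.262, 0.505 and 0.47). Trp53bp1, which favours end joining over resection, averaged 11.22 ± 0.20 in EGFRvIII and 11.51 ± 0.13 in PDGF-B cells (log2 fold change -0.29, limma adjusted p = 0.316).

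Among the Fanconi genes, Fancg, a subunit of the core complex that ubiquitinates FANCD2 and FANCI, stood at 8.56, 8.40, 8.38 and 8.27 in EGFRvIII and at 7.89 and 8.15 in PDGF-B arrays. All EGFRvIII arrays were above both PDGF-B arrays, by 0.39 on average (SE 0.14), and the limma adjusted p of 0.157 did not pass. In a dim second Fancg probe set the difference was 0.07. Fanca, another core subunit, had -0.02 and Fancc, which was too dim to be tested, had means of 6.11 in EGFRvIII and 5.79 in PDGF-B cells.

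The RecQ helicases Blm and Wrn, which unwind recombination and fork structures, and Exo1, the nuclease that resects ends and mismatches, gave 0 of 3 passing. Blm stood at 7.23, 7.51, 7.73 and 7.43 in EGFRvIII and at 7.78 and 7.73 in PDGF-B arrays. EGFRvIII replicate 3 was level with the lower PDGF-B array and the rest of its group was below both (log2 fold change -0.28, limma adjusted p = 0.319). Exo1 had -0.10. Wrn had 0.02 by its brightest probe set and 0.56 and 0.43 by its other 2, so its value depended on the probe set. Those other 2 were above the array median in at most 1 array.

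In mismatch repair, Msh6, which recognises single mismatches, stood at 9.35, 9.22, 9.49 and 9.43 in EGFRvIII and at 9.70 and 9.80 in PDGF-B arrays. The groups were apart by -0.38 on average (SE 0.13), and limma gave an adjusted p of 0.138. The log2 fold change was negative in all 17 other settings, from -0.51 to -0.29, and passed in none. Msh6 had 1 probe set and groups that do not overlap. Only array scaling, the replicate block and the Xist covariate could therefore have turned its sign. Pms2, an endonuclease of mismatch repair, had -0.21 (limma adjusted p = 0.479). Msh3, which recognises larger loops, was too dim to be tested and had means of 6.28 in EGFRvIII and 5.91 in PDGF-B cells.

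End joining and base excision genes had small differences. Of the end joining members, Xrcc4, the scaffold of the ligase, and the Ku subunits Xrcc5 and Xrcc6 had log2 fold changes of 0.13, 0.15 and -0.11, and 0 of 3 passed. Xrcc5 stood at 7.44, 7.61, 7.22 and 7.19 in EGFRvIII and at 7.02 and 7.40 in PDGF-B arrays, which overlapped. Xrcc4 was the steadiest tested member among the EGFRvIII arrays, with an SD of 0.05. All 7 base excision and single-strand break genes lay between -0.15 and 0.18, and 0 of 7 passed (limma adjusted p from 0.473 to 0.956). They span the glycosylases Ogg1 and Neil3 (-0.15 and 0.17), the endonuclease Apex1 (-0.10), the scaffold Xrcc1 and its ligase Lig3 (0.18 and 0.09), and the break sensors Parp1 and Parp2 (0.03 and -0.05). Xrcc1 had the largest of these differences, with 7.56, 7.70, 7.32 and 7.09 in EGFRvIII and 7.27 and 7.21 in PDGF-B arrays, and its groups overlapped. The 95% interval of Parp1, the target of PARP inhibitors, ran from -0.58 to 0.63; EGFRvIII replicate 3 was low for it, with 9.36 where the rest of the group had 10.05 to 10.25.

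Nucleotide excision genes pointed both ways. Xpa, which verifies the lesion and anchors the incision complex, stood at 7.57, 7.52, 7.16 and 7.30 in EGFRvIII and at 7.08 and 6.65 in PDGF-B arrays. The groups were separated by less than the spread within either of them, and the log2 fold change of 0.52 (SE 0.18) had a limma adjusted p of 0.149. Its 2 dimmer probe sets had 0.48 and 0.02. Ercc1, which with XPF cuts the damaged strand, averaged 7.64 ± 0.20 in EGFRvIII and 7.15 ± 0.40 in PDGF-B cells with overlap (log2 fold change 0.49, limma adjusted p = 0.203). Ercc2, a helicase of TFIIH, had -0.32 (limma adjusted p = 0.421), and Xpc, the damage sensor, was too dim to be tested, with means of 5.89 in EGFRvIII and 5.61 in PDGF-B cells.

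Mgmt, which removes alkyl groups from guanine and is the repair gene most used in the clinic of glioma, was below the array median in all 6 arrays. It stood at 6.02, 5.31, 5.88 and 5.71 in EGFRvIII and at 5.91 and 6.04 in PDGF-B, and the values overlapped. It was not tested. Rrm2b, the ribonucleotide reductase subunit that p53 induces to supply nucleotides for repair, stood at 8.28, 8.57, 8.58 and 8.54 in EGFRvIII and at 8.61 and 8.53 in PDGF-B cells (log2 fold change -0.08, 95% interval -0.40 to 0.25; limma adjusted p = 0.75). Of 9 other tested p53 targets 3 rose and 0 fell, where 1.64% of all tested genes rose and 0.592% fell. Cdkn1a, the p21 inhibitor of the cell cycle, stood at 8.44, 9.67, 8.74 and 8.37 in EGFRvIII and at 6.36 and 5.79 in PDGF-B arrays and rose by 2.73 (limma adjusted p = 0.0331); it was below the array median in both PDGF-B arrays and entered the test through the EGFRvIII arrays alone. Ccng1, which feeds back on p53, stood at 10.82, 11.16, 11.09 and 10.90 in EGFRvIII and at 8.78 and 8.74 in PDGF-B arrays and rose by 2.23 (limma adjusted p = 0.00428). Trp53inp1, a p53-induced stress protein, stood at 11.24, 11.25, 10.71 and 10.97 in EGFRvIII and at 9.15 and 8.87 in PDGF-B arrays and rose by 2.03 (limma adjusted p = 0.011). All 3 calls were lost without PDGF-B replicate 1 (adjusted p from 0.0584 to 0.139), those of Cdkn1a and Trp53inp1 without PDGF-B replicate 2 (0.143 and 0.0789), and that of Cdkn1a without EGFRvIII replicate 1, 3 or 4 (0.074, 0.0518 and 0.0625). Adding the Xist covariate, Cdkn1a and Trp53inp1 lost their calls (adjusted p = 0.139 and 0.0626), as they did in the 4 arrays with a high Xist signal (0.059 and 0.0639), and Ccng1 kept its call in both (0.048 and 0.0274). With the replicate number as a block all 3 calls ended (limma adjusted p = 0.116 for Cdkn1a, 0.0641 for Ccng1 and 0.0641 for Trp53inp1). The difference between Rrm2b and these genes was not tested.

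**Figure D5:**
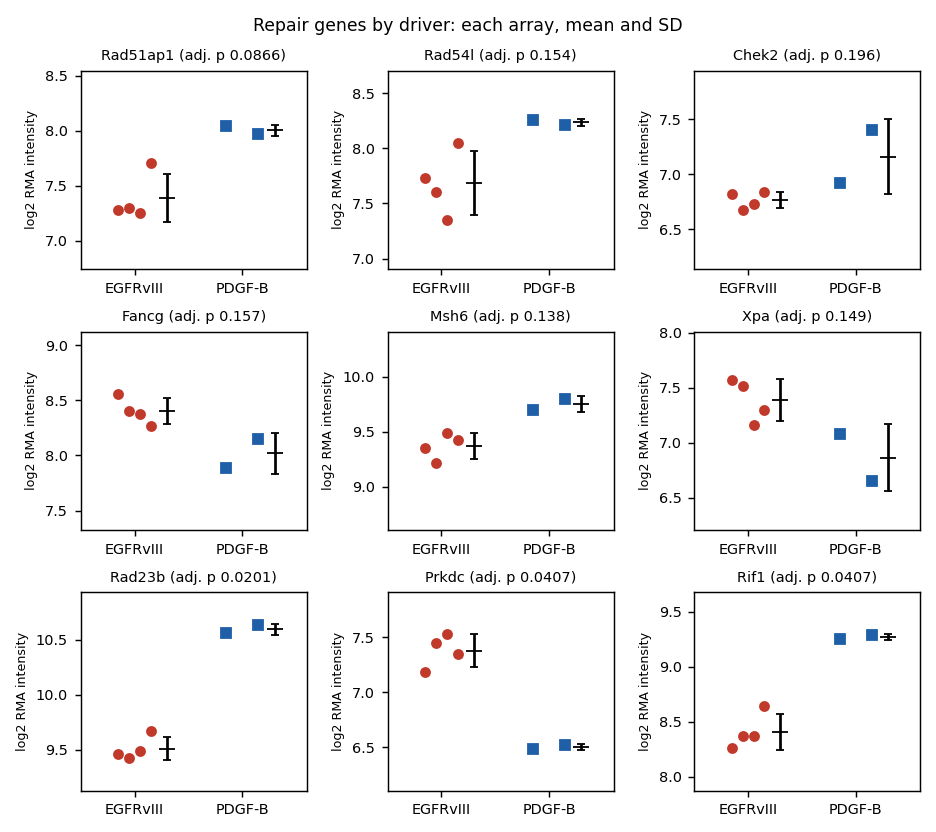
Log2 RMA intensity in each array of the 6 members with an unadjusted p under 0.05 (upper rows) and of the 3 other repair genes that passed the test (bottom row). Each panel spans the same range of the log2 scale, red circles are EGFRvIII and blue squares PDGF-B arrays, and black bars give mean and SD; the gap between groups is widest for Rad23b, at -1.09.

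The 11 tested S-phase members had a median log2 fold change of -0.18, with 9 negative, and the other 23 tested members one of 0.01, with 11 negative. With arrays centred or quantile normalized 9 of the 11 were again negative, and of the other 23 members 17 when centred and 15 when quantile normalized. With the Xist signal as a covariate 6 of the 11 and 17 of the 23 were negative, with medians of -0.01 and -0.07, and in the 4 arrays with a high Xist signal 7 and 17 were. Which list was lower therefore depended on the setting. Of 9 tested proliferation genes 1 passed, against 2.24% of all tested genes. Foxm1, a transcription factor of mitotic genes, stood at 7.70, 7.85, 7.92 and 8.11 in EGFRvIII and at 8.86 and 8.94 in PDGF-B arrays and fell by 1.00 (limma adjusted p = 0.0356); the mean of its probe sets had -0.33 (adjusted p = 0.256), and with 1 array left out in turn its call held only without EGFRvIII replicate 2 (0.0471; otherwise 0.0534 to 0.148). It was also lost with the Xist covariate (adjusted p = 0.139) and in the 4 arrays with a high Xist signal (0.127), at a log2 fold change of -0.88 in both. With the replicate number as a block the limma adjusted p of Foxm1 was 0.1. The median of the 9 proliferation genes was -0.20. Mki67 averaged 12.59 ± 0.03 in EGFRvIII and 12.64 ± 0.04 in PDGF-B cells. The part of proliferation in the repair genes' values was not tested.

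Elsewhere in the repair pathways 64 of 89 listed genes were measured and 48 tested, of which 1 rose, 2 fell and 45 did not pass, against the same background of 2.24%. Rad23b, which stabilises the damage sensor XPC, stood at 9.46, 9.43, 9.49 and 9.67 in EGFRvIII and at 10.56 and 10.63 in PDGF-B arrays, and fell by 1.09 (SE 0.13; limma adjusted p = 0.0201), against -0.31 in a further probe set. Rif1, which acts with TRP53BP1 against end resection and times replication, stood at 8.26, 8.37, 8.37 and 8.64 in EGFRvIII and at 9.25 and 9.29 in PDGF-B arrays, and fell by 0.86 (SE 0.14; limma adjusted p = 0.0407), with -1.26 in its other, dimmer probe set. Prkdc, the catalytic subunit of DNA-PK that Ku recruits to broken ends, stood at 7.18, 7.45, 7.53 and 7.35 in EGFRvIII and at 6.48 and 6.52 in PDGF-B arrays, and rose by 0.88 (SE 0.14; limma adjusted p = 0.0407). Prkdc was below the array median in both PDGF-B arrays, so it entered the test only through the group in which it is high. In each of these 3 genes the 4 EGFRvIII arrays lay on one side of both PDGF-B arrays by more than the spread within either group. The calls were not firm. Rad23b lost its call without EGFRvIII replicate 1 (adjusted p = 0.0694), PDGF-B replicate 1 (0.123) or PDGF-B replicate 2 (0.0991). Those of Rif1 and Prkdc ended whichever array was left out, with adjusted p from 0.0566 to 0.179 and from 0.0517 to 0.179. With the Xist signal as a covariate all 3 calls ended (adjusted p from 0.111 to 0.163), with log2 fold changes of -1.02 for Rad23b, -0.75 for Rif1 and 0.94 for Prkdc.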

How the data were processed

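Arrays of 6 samples, 1 per sample, were used. The authors deposited log2 intensities per probe set; per the submitters' processing notes they used RMA and affy 3.4.2, and the log base was read from the values, 2.22 to 14.4. Both tables of log2 values agreed within 5e-09. Of 22690 probe sets, 20380 had 1 gene symbol in the platform annotation, and the Entrez identifier gave a current symbol for 20351 of these. A gene was tested where its brightest probe set exceeded the array's median in at least 2 arrays, which left 6753 of 12393 genes (54.5%). EGFRvIII was compared with PDGF-B with lmFit and eBayes of limma 3.58.1 in R 4.3.3 (two-sided test, 4 residual and 2.81 prior degrees of freedom), with Benjamini-Hochberg adjustment over all tested genes and no covariate; the procedure was tested on simulated data. Figures were drawn with matplotlib 3.10.9.

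Named were all members, with values per array for those at an unadjusted p under 0.05 or with the largest change of their role, and the called genes of the lists of other repair, p53 target and proliferation genes; further values per array were chosen after they were seen. The members, lists and alternatives were chosen with earlier results of these data known. The labels name biological replicates and no batch; the number of arrays limits the precision. Alternatives covered the other table, array scaling, filters, probe set means, variance models, the replicate number as a block, the Xist signal, arrays left out and other thresholds.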

Additional observations from a re-analysis of the deposited data

Results flagged for a closer look

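Of 46 genes checked for a single outlying EGFRvIII sample, 2 had one, and chance alone marks about 1 in 20. The high Brca1 value of EGFRvIII replicate 2 did not meet this criterion. For Rad51ap1 it was EGFRvIII replicate 4, at 7.71, with the rest of the group between 7.25 and 7.30; leaving it out gave a log2 fold change of -0.73 (limma adjusted p = 0.0663). For Rrm2b it was EGFRvIII replicate 1, at 8.28, with the rest between 8.54 and 8.58.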

How the results depend on the processing

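No member passed limma's adjusted threshold of 0.05 in any of 17 other fits, which had 1 to 7 members at an unadjusted p under 0.05. At a threshold of 0.1 the main fit had 1, Rad51ap1. Among the other fits the limma adjusted p of Msh6 was 0.0874 with arrays centred, and that of Rad54l 0.0917 without EGFRvIII replicate 4. Of the 34 tested members 19 kept the sign of their log2 fold change, and stayed off 0 after rounding, in every such fit that tested them. The 15 others were all within 0.18 of 0. Of these, Rrm2b did not change sign and only rounded to -0.00 in 1 fit. Each of the rest changed sign in at least 1. The fits with the other table, other filters or a trended variance left the log2 fold changes as they were, so they could not turn a sign. The count of genes called, 151 (111 higher and 40 lower), was 118 with arrays centred (61 higher and 57 lower), 121 with quantile normalization (77 higher and 44 lower), 77 with no filter, 265 for genes bright in all 6 arrays, 253 with a trended robust variance, 3 with the Xist signal as a covariate, 16 in the 4 arrays with a high Xist signal, 5 at an adjusted p under 0.01, 706 under 0.1, and 1 to 155 with 1 array left out (1 and 9 without PDGF-B replicates 1 and 2; 15, 155, 96 and 23 without EGFRvIII replicates 1 to 4). The count of other repair genes called, 3, was 1 with no filter, 7 at 0.1, 0 at 0.01, and 0 to 1 with 1 array left out (8 to 11 at an unadjusted p under 0.05); it was 0 in limma with the Xist covariate and 0 in the 4 arrays with a high Xist signal, with 9 at an unadjusted p under 0.05 in each. With the replicate number as a block 9 genes were called, 0 members and 0 other repair genes (4 and 9 at an unadjusted p under 0.05). Arrays sharing a number had deviations correlated at 0.203 and 0.246, and PDGF-B replicate 1 with EGFRvIII replicate 4 at 0.180. The 2 PDGF-B arrays deviate from their mean by equal and opposite amounts. These values therefore do not settle whether numbers pair the samples. Fewer samples or residual degrees of freedom enter the fits with arrays left out, the covariate or the block; the cause of the other changes was not tested. Signal over background limits dim genes, such as Mgmt and Xpc, which were not tested.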

Other observations

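Some other repair genes had large differences that did not pass the test; they were chosen after their values were seen. Parp3, a poly(ADP-ribose) polymerase of double-strand break repair, stood at 7.40, 8.36, 7.92 and 6.22 in EGFRvIII and at 5.68 and 6.19 in PDGF-B arrays, a log2 fold change of 1.54 (limma adjusted p = 0.154), with EGFRvIII replicate 4 close to the PDGF-B arrays. Ercc4, the XPF nuclease that pairs with ERCC1, had 0.93 (limma adjusted p = 0.0645). Parp3 and Ercc4 were above the array median in 3 EGFRvIII arrays and in no PDGF-B array, so they entered the test only through the group in which they are high. Ddb2, a p53-induced sensor of ultraviolet damage, had 0.65 (limma adjusted p = 0.0576), and 0.02 in its other probe set. Ung, the uracil glycosylase, had -0.75 (limma adjusted p = 0.102).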
